A study of Homo sapiens with 12 samples.

Results

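TFAP2A, TFAP2B and TFAP2C, which encode the transcription factors AP-2 alpha, beta and gamma, were examined together with 7 genes used as markers of trophoblast, the outer cells that build the placenta: CGA, ELF5, TEAD3, VTCN1, XAGE2, PGF and CCR7. The members were all probes whose gene symbol in the platform annotation is one of these 10 symbols, which gave 18 of the 48803 probes of an Illumina HumanWG-6 v3 bead array. The symbols were fixed by name and not by a measured value of these arrays, but the list was drawn up with earlier results of the data known. Of the 18 probes, 9 were detected on at least 1 of the 12 arrays and 8 passed the filter on dim probes. A probe counts as detected at a detection p-value under 0.01, and the filter asked for detection on at least 4 of the 12 arrays.

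The arrays measured total RNA of SNUhES3 cells, an established line of human embryonic stem cells (ESCs). Undifferentiated ESCs (4 arrays) grew on STO cells, a mouse feeder line arrested in mitosis, in medium that held basic fibroblast growth factor at 4 ng/ml and knockout serum replacement at 20%. Embryoid bodies (EBs), floating balls of differentiating cells of many kinds, were grown from colonies of the same line in that medium without the growth factor for 1 week (4 arrays) or 2 weeks (4 arrays). The labels do not say whether the mouse feeder cells were removed before the ESCs were lysed, so the ESC arrays may have held feeder RNA, and its part in the differences between ESCs and EBs was not tested. All 3 groups come from this 1 line, and the labels do not say whether the 4 arrays of a group hold separate cultures, so p-values measure only the spread between these arrays, which may be technical. An EB is a mixture, so that in these bulk samples fewer cells of a type and less RNA per cell cannot be told apart.

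AP-2 factors bind DNA as dimers at GC-rich sites and switch on genes of trophoblast, amnion, surface ectoderm and neural crest, the migratory cells that leave the edge of the neural tube. TFAP2A and TFAP2C are among the factors that set up the early human trophoblast, together with GATA2 and GATA3, whereas TFAP2B is better known from neural crest and kidney. Later trophoblast makes the pregnancy hormones, which pair the alpha subunit encoded by CGA with a CGB subunit, and the growth factor encoded by PGF.

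The sequence around the start sites is given here for TFAP2A, TFAP2B and VTCN1, each with at least 1 probe called higher in EBs, and for CGA, whose window holds a motif of its own, so that their regulatory regions can be compared. RefSeq's tables for GRCh38.p14 gave promoter windows, from 250 bases before to 50 bases after an annotated start, for 8 of the 10 members, and TFAP2C and CCR7 had none there. TFAP2A lies on the minus strand at chr6:10396677-10419659 and has 2 windows, chr6:10419610-10419909 and chr6:10412342-10412641, which begin 7268 bases apart. TFAP2B lies on the same chromosome, with a window on the plus strand at chr6:50818621-50818920. VTCN1 has its window at chr1:117210878-117211177 and CGA at chr6:87095057-87095356, both on the minus strand. Each window is written 5′ to 3′ in gene direction. Capitals mark a match to the AP-2 consensus GCCNNNGGC, in VTCN1, or to the cyclic AMP response element (CRE) TGACGTCA, in CGA. Both motifs read the same on the other strand, apart from the free bases.
TFAP2A, upstream start: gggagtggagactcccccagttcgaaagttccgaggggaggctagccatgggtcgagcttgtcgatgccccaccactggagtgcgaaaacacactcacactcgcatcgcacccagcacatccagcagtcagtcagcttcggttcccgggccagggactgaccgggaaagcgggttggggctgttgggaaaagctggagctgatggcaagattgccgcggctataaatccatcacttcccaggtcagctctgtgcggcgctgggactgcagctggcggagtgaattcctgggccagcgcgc
TFAP2A, downstream start: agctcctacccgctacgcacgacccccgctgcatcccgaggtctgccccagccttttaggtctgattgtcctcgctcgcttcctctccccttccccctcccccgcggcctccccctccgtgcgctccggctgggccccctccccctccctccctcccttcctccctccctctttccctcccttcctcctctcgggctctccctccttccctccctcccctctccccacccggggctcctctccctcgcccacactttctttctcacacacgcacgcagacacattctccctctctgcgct
TFAP2B: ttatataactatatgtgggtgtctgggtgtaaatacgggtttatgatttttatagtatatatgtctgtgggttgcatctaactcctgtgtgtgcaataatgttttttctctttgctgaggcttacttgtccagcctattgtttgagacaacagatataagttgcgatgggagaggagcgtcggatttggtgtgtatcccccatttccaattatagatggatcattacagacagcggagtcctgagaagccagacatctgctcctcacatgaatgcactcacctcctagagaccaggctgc
VTCN1: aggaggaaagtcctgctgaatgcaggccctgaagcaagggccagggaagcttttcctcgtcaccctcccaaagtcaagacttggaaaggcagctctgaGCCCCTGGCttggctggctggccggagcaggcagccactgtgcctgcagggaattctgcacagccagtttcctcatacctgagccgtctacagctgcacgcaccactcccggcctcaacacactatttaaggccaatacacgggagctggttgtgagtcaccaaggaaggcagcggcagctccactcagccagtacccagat
CGA: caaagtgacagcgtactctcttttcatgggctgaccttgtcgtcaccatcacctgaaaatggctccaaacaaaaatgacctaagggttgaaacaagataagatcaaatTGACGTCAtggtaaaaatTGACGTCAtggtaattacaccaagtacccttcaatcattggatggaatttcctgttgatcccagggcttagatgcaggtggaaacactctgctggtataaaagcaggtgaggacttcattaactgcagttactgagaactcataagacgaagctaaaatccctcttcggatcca
The CGA window holds the CRE 2 times, beginning 142 and 124 bases before the start, and 1.85% of the 35116 promoter windows hold it at least once. In the VTCN1 window GCCCCTGGC begins 152 bases before the start, and 23.2% of all windows hold a match to the AP-2 consensus. No match to either motif was found in the TFAP2A and TFAP2B windows, nor in those of ELF5, TEAD3, XAGE2 and PGF. The windows differ in composition, with 61.7% and 68% G and C at the 2 TFAP2A starts, 58.7% at VTCN1, 43% at TFAP2B and 42.3% at CGA. A match is a run of letters only, and binding was not measured on these arrays.

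Some facts of the whole set bear on the values. Mean intensity per array ran from 718 to 1092, and 14045 to 15905 probes were detected per array. In ESCs and 1-week EBs, arrays were closest in the pairs 1 with 2 and 3 with 4: the ESC arrays correlated at 0.9966 and 0.9978 within these pairs and at 0.9827 to 0.9831 across them. At 2 weeks arrays 3 and 4 were closest, at 0.9975, but array 1 correlated at 0.9944 with array 3 and at 0.9917 with array 2. The labels do not say what sets these pairs apart. The second 2-week array had the lowest mean intensity and is the only one whose values in the authors' normalized table depart from the intensities, with a correlation of 0.938 against at least 0.9976 on the other 11. As a check of the labels, POU5F1, NANOG and SOX2, the core factors of pluripotency, were detected on all arrays, and their 2-week minus ESC differences were -0.67, -0.82 and -0.00 on the log2 scale, none of them past 2-fold.

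In what follows, levels are normalized signals on the log2 scale for arrays 1 to 4 in turn, and differences are limma estimates from all 12 arrays with adjustment over the 15921 tested probes. To be called, a probe needed a difference of at least 1 on the log2 scale, which is 2-fold, with an adjusted p under 0.05. With these limits 8.85% of all tested probes were called between 1-week EBs and ESCs (5.48% higher and 3.37% lower), 14.1% between 2-week EBs and ESCs (7.52% higher and 6.54% lower) and 1.28% between the EB times (0.791% higher and 0.490% lower at 2 weeks). Of the 8 tested member probes, 4 were called higher and 0 lower at 1 week, 4 higher and 0 lower at 2 weeks, and 0 between the EB times. The 4 were the same at both times: 2 probes of TFAP2A, 1 of TFAP2B and the VTCN1 probe. Of these, 3 were undetected in ESCs and so passed the filter through EB arrays alone, which leaves little to read from the count. The median difference of the 8 probes was 1.00 at 1 week and 1.12 at 2 weeks, beside -0.00 and -0.03 over all tested probes. The same 3 probes enter this median and several of the 8 read the same gene, so little can be read from it either. Without the 2-fold minimum, 5, 7 and 2 of the 8 probes passed in the 3 comparisons, where 49.0%, 59.8% and 22.8% of all tested probes did. Groups of arrays did not overlap for 5, 7 and 2 member probes, against 46.0%, 53.2% and 30.0% of all tested probes, so differences of this kind were common on the arrays.

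**Figure D1:**
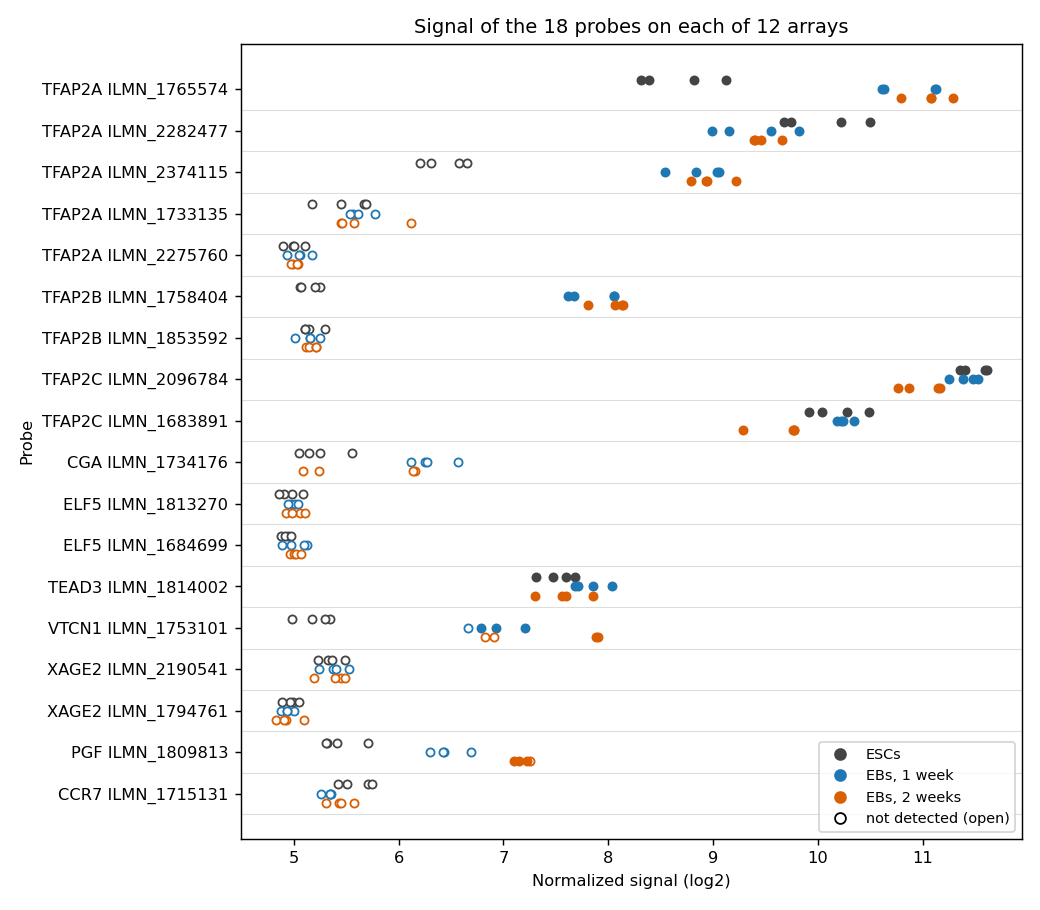
Normalized signal (log2, horizontal axis) of each of the 18 member probes (vertical axis) on the 12 arrays, 1 point per array, black for ESCs, blue for 1-week EBs and orange for 2-week EBs, open where the probe was not detected. TFAP2A probes ILMN_1765574 and ILMN_2374115, TFAP2B probe ILMN_1758404 and VTCN1 lie higher in both EB groups than in ESCs, while both TFAP2C probes are bright in all 3 groups and lowest at 2 weeks.

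TFAP2A was read by 5 probes, which did not move alike. Probe ILMN_1765574, designed on transcript NM_001032280, measured 8.39, 8.32, 8.82 and 9.12 in ESCs, 10.63, 10.62, 11.13 and 11.12 in 1-week EBs and 10.80, 11.08, 11.29 and 11.08 in 2-week EBs. All 8 EB arrays lay above all 4 ESC arrays, and the 2 EB groups overlapped. The rise was 2.21 ± 0.18 (SE) or 4.63-fold at 1 week (adjusted p = 4.91e-07, limma) and 2.40 or 5.28-fold at 2 weeks (adjusted p = 1.27e-07, limma). Between 1 and 2 weeks the difference was 0.19, with a 95% interval from -0.21 to 0.59 (adjusted p = 0.512, limma).

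Probe ILMN_2374115, designed on the same transcript, was detected on all EB arrays and on no ESC array. It measured 6.58, 6.65, 6.31 and 6.20 in ESCs, 8.55, 8.83, 9.04 and 9.05 at 1 week and 8.79, 8.94, 9.22 and 8.94 at 2 weeks. Its detection p-values in ESCs were 0.0132 to 0.0277, past the limit of 0.01, so it was undetected there rather than shown to be absent. Since no ESC array detected it, the fold is a bound, set against the dimmest detected probes of each array: at least 3.43-fold higher at 1 week (adjusted p = 8.56e-09, limma) and at least 3.69-fold at 2 weeks (adjusted p = 3.27e-09, limma).

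Another probe, ILMN_2282477, designed on transcript NM_003220, was lower in EBs. Its levels were 9.74, 9.68, 10.50 and 10.22 in ESCs, 8.99, 9.15, 9.56 and 9.82 at 1 week and 9.39, 9.45, 9.41 and 9.66 at 2 weeks. Here 1 of the 1-week arrays lay above 2 of the ESC arrays, while all 2-week arrays lay below them. The differences from ESCs were -0.66 (95% interval -1.09 to -0.22, adjusted p = 0.0154, limma) and -0.56 (-0.99 to -0.13, adjusted p = 0.0278, limma), both short of 2-fold. Between ESC and 1-week arrays of the same number the differences were -0.75, -0.52, -0.94 and -0.40, lower in 4 of 4. With the array number as a block the 1-week adjusted p was 0.00294 (limma). Arrays 1 and 2, and 3 and 4, deviated together about as closely across numbers, so the 4 differences may not be independent and the blocked value may overstate the evidence. Without the block, both adjusted p-values exceed the threshold with the authors' normalized values, at 0.145 and 0.157, and with arrays 1 and 2, and 3 and 4, averaged, at 0.131 and 0.154. Leaving out 1-week array 1 took the 1-week value to an adjusted p of 0.0522, and leaving out ESC array 3 or 4 or 2-week array 1, 2 or 3 took the 2-week value to 0.0872, 0.0698, 0.0626, 0.0553 and 0.0611.

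The remaining TFAP2A probes, ILMN_1733135 and ILMN_2275760, were detected on no array. They too were designed on NM_003220 and NM_001032280, so each transcript has at least 1 probe with signal and 1 without. NM_001032280 is among the 3 curated transcripts that the GRCh38.p14 gene table lists for TFAP2A, and NM_003220 is not among them. Neither the probe sequences nor a link between transcripts and the 2 start sites shown above were used here, so which exons each probe reads was not tested.

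Because the probes sit on the same array, a log2 shift shared by all its probes cancels when the change of one is set against the change of another. Processing that acts by signal level does not cancel in this way. The levels of different probes cannot be ranked, so only changes are compared. Probes ILMN_1765574 and ILMN_2282477 were detected on all 12 arrays. The first changed by 2.87 more than the second at 1 week and by 2.96 more at 2 weeks, both on the log2 scale, and in both comparisons the per-array differences between the probes did not overlap between EBs and ESCs. The two-sided exact permutation p was 0.0286 each time, the smallest that 70 splits of 4 against 4 arrays can give, which became 0.0643 after adjustment over 9 tests on 3 probe pairs. With the 8 EB arrays pooled against the 4 ESC arrays, a comparison chosen after seeing the data, the unequal change was 2.91 (exact permutation p = 0.00202, adjusted p = 0.00303). That p is the smallest that 495 splits can give, it was adjusted over 3 probe pairs only, and it counts look-alike arrays and both EB times as exchangeable. With the authors' normalized values the unequal change was 2.38 at 1 week and 2.54 at 2 weeks.

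The pairs that hold ILMN_2374115 have only bounds against ESCs, where that probe was undetected. With its rise put at the bound, it changed by at least 2.44 more than ILMN_2282477 at both times. Whether its change equals that of ILMN_1765574 cannot be read from these arrays. Between 1 and 2 weeks, where all 3 probes were detected, the differences of the 3 pairs moved by 0.09, 0.08 and -0.01 (exact p = 0.571, 0.486 and 0.971).

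**Figure D2:**
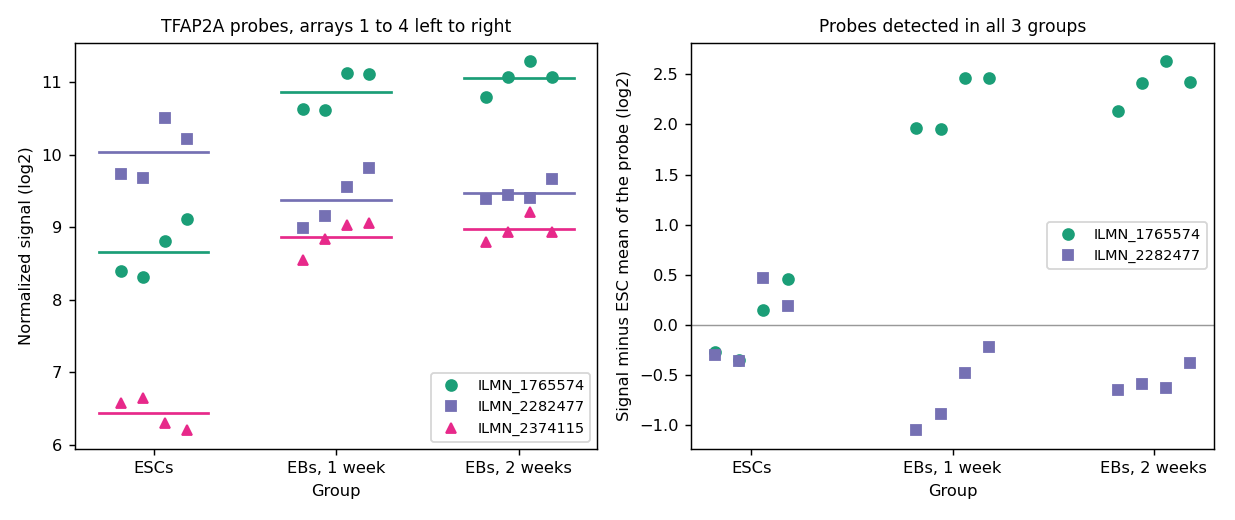
Left, normalized signal (log2) of the 3 detected TFAP2A probes on arrays 1 to 4 of each group, with lines at the group means. Heights of different probes are not comparable, and ILMN_2374115 was undetected in ESCs. Right, signal minus the probe's own ESC mean (log2) for the 2 probes detected in all groups: in EBs all 8 arrays lie above 0 for ILMN_1765574 and below 0 for ILMN_2282477.

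TFAP2B, whose product AP-2 beta acts in neural crest and kidney, went from undetected to a moderate level. Probe ILMN_1758404 measured 5.06, 5.07, 5.24 and 5.20 in ESCs, where no array detected it, 7.67, 7.62, 8.05 and 8.05 at 1 week and 8.07, 7.80, 8.13 and 8.14 at 2 weeks, detected on all 8 EB arrays. The rise was at least 1.69-fold at 1 week and at least 1.93-fold at 2 weeks, with fitted differences of 2.71 (adjusted p = 5.44e-10, limma) and 2.89 (adjusted p = 1.78e-10, limma). The bounds are small because the floor of detection, 6.67 to 7.28 on the log2 scale, lies close to the EB signal. The EB groups overlapped and differed by 0.19 (adjusted p = 0.278, limma). The other TFAP2B probe, ILMN_1853592, designed on an expressed sequence tag, was detected on no array and stayed between 5.01 and 5.29.

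TFAP2C, which encodes AP-2 gamma and works in trophoblast, germ cell precursors and naive pluripotent cells, was bright on both of its probes in all 3 groups. The gene lies at chr20:56629306-56639283. Probe ILMN_2096784 measured 11.59, 11.61, 11.40 and 11.36 in ESCs, 11.39, 11.25, 11.48 and 11.53 at 1 week and 10.87, 10.76, 11.17 and 11.14 at 2 weeks. ESCs and 1-week EBs overlapped, and all 2-week arrays lay below both. At 1 week the difference from ESCs was -0.08, with a 95% interval from -0.31 to 0.15 (adjusted p = 0.561, limma). At 2 weeks it was -0.51 from ESCs (adjusted p = 0.00116, limma) and -0.43 from 1-week EBs (adjusted p = 0.0118, limma), significant but short of 2-fold.

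The second TFAP2C probe, ILMN_1683891, was also lowest at 2 weeks. Its levels were 10.28, 10.49, 9.91 and 10.04 in ESCs, 10.35, 10.24, 10.23 and 10.18 at 1 week and 9.78, 9.28, 9.76 and 9.77 at 2 weeks. At 1 week it differed from ESCs by 0.07 (adjusted p = 0.704, limma). Its differences at 2 weeks were -0.53 from ESCs (adjusted p = 0.00402, limma) and -0.60 from 1-week EBs (adjusted p = 0.0063, limma). The low reading of 9.28 belongs to the second 2-week array, and with the authors' normalized values the differences became -1.40 and -1.56 with adjusted p-values of 0.153 and 0.250. For ILMN_2096784 those values gave -0.59 between the EB times, which did not pass either. With the look-alike array pairs averaged, the 2-week minus 1-week differences of the TFAP2C probes no longer passed, at adjusted p-values of 0.225 and 0.127.

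VTCN1 encodes B7-H4, a surface protein of the B7 family that restrains T cells. Its probe measured 5.35, 5.30, 5.17 and 4.98 in ESCs, 6.93, 7.20, 6.67 and 6.78 at 1 week and 6.83, 6.91, 7.89 and 7.90 at 2 weeks. It was detected on no ESC array, on 3 of the 1-week arrays and on 2 of the 2-week arrays, arrays 3 and 4, which lay well above arrays 1 and 2. All EB arrays lay above all ESC arrays. The probe is not tested where a filter asks for detection on all 4 arrays of a group. The difference was 1.69 ± 0.23 (SE) at 1 week (adjusted p = 5.13e-05, limma), with no fold given because the EB mean did not clear the floor. At 2 weeks it was 2.18 (adjusted p = 3.10e-06, limma), at least 1.23-fold. The EB times differed by 0.49 (adjusted p = 0.153, limma), and by 0.67 without 2-week array 1 (adjusted p = 0.0494).

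PGF encodes placental growth factor, a ligand of the VEGF receptor FLT1. Its probe was detected on 3 of the 2-week arrays only and so missed the filter. Its levels were 5.31, 5.31, 5.41 and 5.71 in ESCs, 6.43, 6.42, 6.30 and 6.69 at 1 week and 7.10, 7.25, 7.23 and 7.14 at 2 weeks. The 3 groups did not overlap. With no filter, over all 48803 probes, the differences were 1.02 from ESCs to 1 week (adjusted p = 7.18e-06, limma), 1.75 from ESCs to 2 weeks (adjusted p = 2.62e-08, limma) and 0.72 from 1 to 2 weeks (adjusted p = 0.000629, limma). No array of ESCs or 1-week EBs detected PGF, with detection p-values of 0.0105 to 0.0237 at 1 week, so no fold is given between them. At 2 weeks PGF was at least 1.07-fold higher than in ESCs.

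CGA encodes the alpha subunit shared by chorionic gonadotropin and the pituitary hormones LH, FSH and TSH. Its probe was detected on no array. The levels were 5.55, 5.25, 5.14 and 5.05 in ESCs, 6.25, 6.27, 6.56 and 6.12 at 1 week and 5.24, 5.09, 6.16 and 6.13 at 2 weeks. All 1-week arrays lay above the ESC arrays, and at 2 weeks arrays 3 and 4 lay above the ESCs while arrays 1 and 2 lay among them. With no filter the 1-week difference was 1.05 (adjusted p = 0.00468, limma) and the 2-week difference 0.41 (adjusted p = 0.251, limma). Since no array of any group detected CGA, no fold is given. Its detection p-values were 0.0698 to 0.526 in ESCs, 0.0171 to 0.0237 at 1 week and 0.0184 to 0.505 at 2 weeks. CGA was therefore undetected in EBs rather than shown to be absent.

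TEAD3 is one of the DNA-binding partners of YAP1 in Hippo signalling and is abundant in placenta. Its levels were 7.48, 7.31, 7.60 and 7.68 in ESCs, 7.68, 7.71, 7.85 and 8.04 at 1 week and 7.30, 7.56, 7.60 and 7.85 at 2 weeks. It was detected in all 3 groups, and the 1-week arrays overlapped those of 2 weeks. The 1-week difference of 0.31 missed the threshold (95% interval 0.04 to 0.57, adjusted p = 0.0555, limma), as did the 2-week differences of 0.06 from ESCs (adjusted p = 0.674) and -0.24 from 1 week (adjusted p = 0.184, limma). The 1-week value fell on both sides of the threshold: its adjusted p was 0.00952 with the array number as a block, 0.0431 with only these 2 groups fitted, 0.0483 with 1 probe per gene, and 0.0425, 0.0372 and 0.0388 without ESC array 4 or 2-week array 1 or 4. It was 0.612 with the authors' normalized values, where the difference was 0.15, and 0.223 with arrays 1 and 2, and 3 and 4, averaged. Without ESC array 2 it was 0.141, and with no filter 0.104 (limma).

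The other markers were detected on no array. ELF5, an ETS factor of trophoblast stem cells in the mouse and of mammary epithelium, had 2 probes between 4.86 and 5.12. XAGE2, a cancer/testis gene that the placenta also transcribes, had 2 probes between 4.83 and 5.53. CCR7, the receptor for the chemokines CCL19 and CCL21 on lymphocytes and dendritic cells, read 5.26 to 5.74, and its 1-week minus ESC difference of -0.27 (adjusted p = 0.0273 without a filter, limma) lies entirely among undetected levels. For these 3 genes a level under the floor of the arrays cannot be told from absence.

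**Figure D3:**
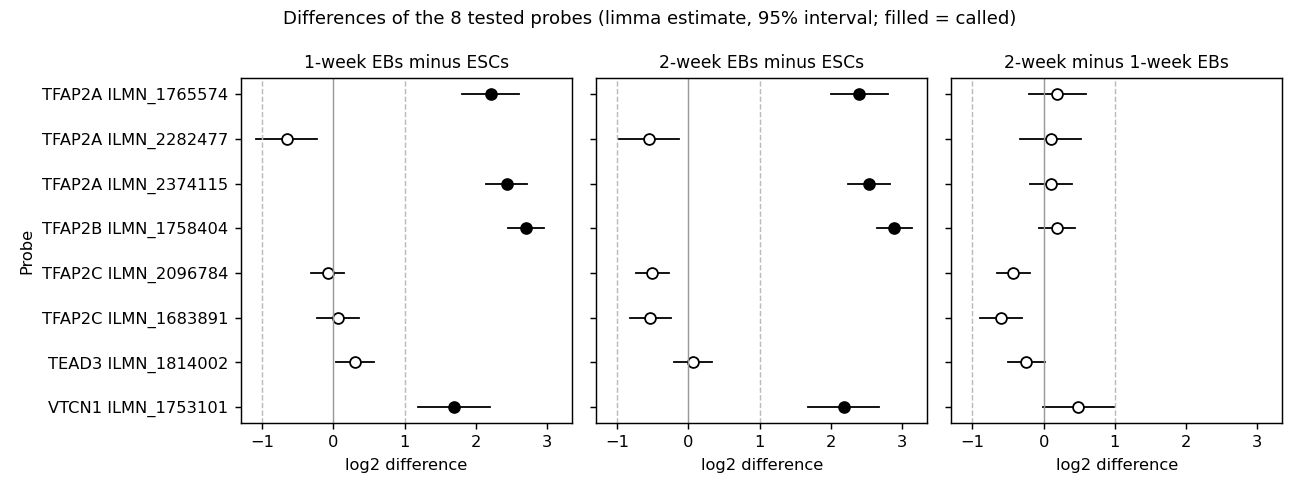
Difference in normalized signal (log2, horizontal axis) of the 8 tested member probes (vertical axis) for the 3 comparisons, as limma estimates with 95% intervals, filled where called. Dashed lines mark 2-fold: the estimates of TFAP2A probes ILMN_1765574 and ILMN_2374115, TFAP2B and VTCN1 lie past it against ESCs at both times, and no probe lies past it between 1 and 2 weeks. ILMN_2374115, TFAP2B and VTCN1 were undetected in ESCs, so their estimates against ESCs rest on undetected levels and are not folds.

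Set in order of time, the members did not move alike. TFAP2B, VTCN1 and the TFAP2A probes ILMN_1765574 and ILMN_2374115 were higher at 1 week, with no difference between the EB times past the threshold. TFAP2C was level until 1 week and lower at 2 weeks. PGF was lowest in ESCs and highest at 2 weeks, near background throughout.

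Among 3247 named genes whose level ranged over at least 1 on the log2 scale, those most like the brightest TFAP2A probe over the 12 arrays were MIR181A2HG (r = 0.9894), POU3F2 (0.9887), FAM210B (0.9855), NR2F1 (0.9853) and APOA1 (0.9838). POU3F2 is a POU factor of the nervous system, NR2F1 a nuclear receptor of neural crest and brain, and APOA1 the main protein of high-density lipoprotein. Both POU3F2 and APOA1 were undetected in ESCs. POU3F2 read 9.15 and 9.22 in EBs, at least 4.18-fold and at least 4.39-fold higher, and APOA1 read 11.61 and 11.72, at least 23.0-fold and at least 24.8-fold higher. For TFAP2C probe ILMN_2096784 the nearest were SLC24A1 (r = 0.9618), DEPDC7 (0.9545), TEAD4 (0.9534), FERMT1 (0.9346) and ZDHHC22 (0.9303). TEAD4, a relative of TEAD3 that in the mouse is required for trophectoderm, read 10.95 in ESCs, 10.78 at 1 week and 10.12 at 2 weeks. These correlations describe 12 arrays in 3 groups that share the same contrasts, and with the authors' normalized values 2 of the 5 TFAP2A neighbours, NR2F1 and MIR181A2HG, were again among the nearest. With those values r was 0.9806 for FAM210B and 0.9842 for APOA1, but 0.8301 for POU3F2.

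Genes around the AP-2 factors were read from lists of related genes, 1 probe per gene. A gene undetected in ESCs entered the list counts, medians and sums through EB arrays alone, which favoured a rise against ESCs. Genes given below as higher by at least some fold are of this kind, so little can be read from how many genes of a list rose. Of the 10562 named genes tested, 9.16% were called at 1 week (6.09% higher, 3.07% lower) and 14.3% at 2 weeks (8.27% higher, 6.02% lower). Of the AP-2 relatives and cofactors, 4 of 8 on the array were tested, and TFAP2D, TFAP2E, CITED1 and WWOX were undetected everywhere. KCTD15, an inhibitor of AP-2 alpha in neural crest, rose by 1.06 at 1 week (adjusted p = 1.89e-05, limma) and 1.21 at 2 weeks. CITED4, a coactivator, had a difference of -0.73 at 1 week and fell by 1.09 at 2 weeks (adjusted p = 1.14e-06, limma). Of 13 genes reported in the literature as AP-2 targets, 10 were tested, 4 rose at each time, 0 fell at 1 week and 1 at 2 weeks. IGFBP5, which binds insulin-like growth factors, rose by 1.49 and 2.44, and the keratin KRT8 rose by 1.10 and 1.20. KIT, the receptor of stem cell factor, had a difference of -0.37 at 1 week and fell by 1.08 at 2 weeks. The median of this list was 0.31 at 1 week and 0.50 at 2 weeks, beside 0.01 and -0.02 over all named genes.

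Of 47 other trophoblast genes on the array, 17 were tested and 28 were undetected everywhere. The undetected genes include the hormone subunits CGB3, CGB5, CGB7 and CGB8, the placental lactogens CSH1 and CSH2, the 7 PSG genes of this list, the syncytium factor GCM1, the fusion protein gene ERVFRD-1 and the aromatase CYP19A1. Of the 17, 7 were higher at each time, GATA3, PAPPA, PPARG, SLC40A1, CDX2, EOMES and HAND1, and TFPI2 was lower at 1 week. HAND1, a helix-loop-helix factor of extraembryonic tissue and heart, rose by 6.89 and 6.98, from 7.91 in ESCs to 14.80 and 14.89. SLC40A1, the iron exporter, was at least 12.1-fold and at least 17.1-fold higher, and EOMES, a T-box factor of trophoblast and of mesendoderm, at least 5.85-fold and at least 6.29-fold. The median of the list was 0.63 at 1 week and 0.52 at 2 weeks, and it includes SLC40A1 and EOMES, which were undetected in ESCs and tested through EB arrays alone. Several of the genes that rose mark mesoderm or endoderm as well.

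AP-2 factors and VTCN1 are not particular to trophoblast, so markers of the other cell types that use them are set beside their values. Of 8 amnion genes, 4 were tested and 4 rose at both times, GABRP, ISL1, BAMBI and HEY1, and ITGB6, WNT6, MUC16 and TNFRSF11B were undetected everywhere. ISL1 rose by 3.05 and 3.45 and HEY1 by 2.42 and 2.59. GABRP, undetected in ESCs and so tested through EB arrays alone, was at least 2.75-fold and at least 2.84-fold higher. The summed signal of the 4 tested genes ran from 5298 to 6855 in ESCs, from 17153 to 21839 at 1 week and from 21671 to 28491 at 2 weeks. BAMBI, a decoy receptor of TGF-beta signalling, made up 92.3% to 93.3% of it in ESCs and 81.9% to 86.2% at 1 week, and the other 3 genes summed to 409 to 522, 2855 to 3520 and 3099 to 4981. Of 15 neural crest genes, 13 were tested, and SNAI2, MSX1, MSX2 and NR2F1 rose while FOXD3 fell at both times. SNAI2, a zinc finger factor of cell migration, was at least 19.9-fold and at least 24.1-fold higher, NR2F1 at least 6.48-fold and at least 6.61-fold, and the homeobox gene MSX1 rose by 4.37 and 4.51. PAX3 and NGFR, which mark neural crest, were undetected everywhere, and the summed signal was 7150 to 7946 in ESCs, 15964 to 16181 at 1 week and 16177 to 16680 at 2 weeks.

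The 17 tested trophoblast genes had a summed signal of 4543 to 5026 in ESCs, 33454 to 38779 at 1 week and 38678 to 39972 at 2 weeks. HAND1 alone made up 4.66% to 5.81% of it in ESCs, up to 78.7% at 1 week and 74.8% to 78.4% at 2 weeks, and the other 16 genes summed to 4301 to 4790, 7679 to 8263 and 8357 to 10062. Of 11 surface ectoderm genes 4 were tested and 1 rose, the desmosomal cadherin DSC3, by at least 3.54-fold at 1 week and at least 7.25-fold at 2 weeks, with KRT5 and KRT14 undetected everywhere. The 4 tested genes summed to 1327 to 1760 in ESCs, 2114 to 2523 at 1 week and 2567 to 3008 at 2 weeks. Of 7 germ cell precursor genes 5 were tested. PRDM1 was at least 3.04-fold and at least 4.05-fold higher and SOX17, which also marks endoderm, at least 2.13-fold and at least 2.39-fold, while KIT fell at 2 weeks. Their summed signal was 5702 to 6747 in ESCs, 4801 to 5014 at 1 week and 3700 to 4258 at 2 weeks. The part of each of these cell types in the rise of TFAP2A probes ILMN_1765574 and ILMN_2374115, of TFAP2B and of VTCN1 was not tested.

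**Figure D4:**
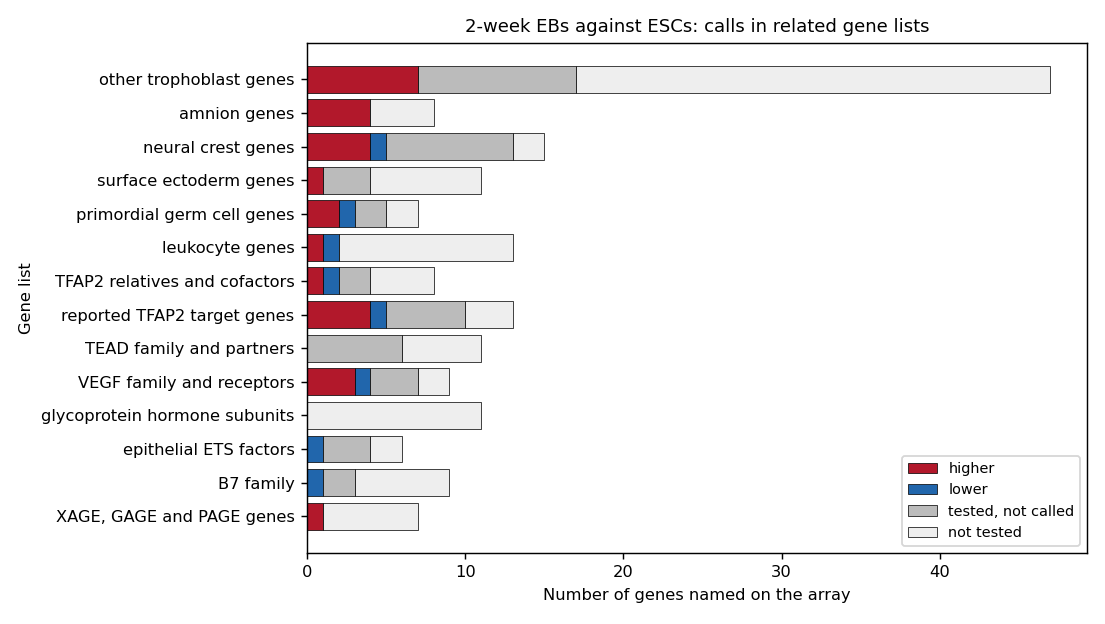
Number of genes on the array (horizontal axis) in 14 lists of related genes (vertical axis) that were called higher or lower in 2-week EBs against ESCs, tested and not called, or not tested because too few arrays detected them. The list of other trophoblast genes has 7 higher of 47, with most of its genes not tested, and the glycoprotein hormone subunits have 0 tested of 11.

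Relatives and partners of the single markers were examined in the same way. All 11 glycoprotein hormone subunit genes that could pair with or resemble CGA were undetected on all arrays. Of the TEAD family and its partners 6 of 11 were tested and 0 were called at either time. Among the VEGF ligands and receptors 7 of 9 were tested, and FLT1, the receptor that binds PGF, was undetected everywhere. VEGFC, a ligand of lymphatic vessels, was at least 2.17-fold and at least 2.43-fold higher, and NRP1, a coreceptor, rose by 1.55 and 1.87 on its brightest probe but had -0.56 and -0.58 on another. The receptor FLT4 had -0.92 at 1 week and fell by 1.26 at 2 weeks. Of the epithelial ETS factors related to ELF5, 4 of 6 were tested, and ELF3 fell by 1.23 and 1.62. Of the B7 family 3 of 9 were tested. HHLA2 fell by 1.28 at 1 week, where only 1 of 4 arrays detected it, and, undetected at 2 weeks, was at least 2.21-fold lower there. Of the XAGE, GAGE and PAGE genes 1 of 7 was tested, PAGE4, which was at least 1.36-fold and at least 2.57-fold higher.

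Of 13 leukocyte genes, among which CCR7 is usually found, 11 were undetected everywhere, including PTPRC, CD3E and the CCR7 ligands CCL19 and CCL21. LCP1, an actin-bundling protein, was at least 6.25-fold and at least 4.89-fold higher. CORO1A, another actin-binding protein, fell by 1.13 and 1.19, to levels near the floor that 2 of 4 arrays detected in each EB group.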

How the data were processed

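Total RNA was hybridised to 12 arrays of 1 colour. The deposited table without normalization holds a linear intensity per probe and array with a detection p-value, per the file headers, in steps of 1 in 759. The deposited series matrix holds the authors' log2 values, with a median of 6.68 in every column and 1 or 2 missing values per column. It runs in the same direction as the intensities, shows no centring of genes, and served as an alternative only. How the authors made it and the scanner software are not given in the sources used here.

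Intensities were background-corrected (offset 16), quantile-normalized and put on the log2 scale with neqc of limma 3.58.1 in R 4.3.3, which shrinks differences of dim probes and removes shifts shared by most probes. Probes detected (p-value under 0.01) on at least 4 of 12 arrays were kept, 15921 in all. The 3 groups were fitted together with lmFit and eBayes (prior degrees of freedom 3.81), with Benjamini-Hochberg adjustment over kept probes. Where no array of a group detected a probe, the fold is a bound: the other group's mean against a floor, which per array is the dimmest detected probe or, if higher, the probe itself, averaged over arrays. On simulated data with 100 changed probes per size among 15921, 98%, 99% and 98% of changes of 1.5 on the log2 scale were called in the 3 comparisons, 100% of those of 2.5, and 0 unchanged probes. The simulated arrays varied independently, without the look-alike pairs of the real arrays, so these rates need not hold for the real arrays.

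Symbols are those of the platform annotation: 27578 probes had 1 symbol, 13 several and 21212 none, and 27541 matched the GRCh38.p14 gene table by Entrez ID, with 0 symbols updated. In lists, the kept probe with the highest mean stood for its gene. Named were all members, from each list the 3 called genes with the largest 2-week minus ESC difference, and the 5 genes most correlated with the brightest TFAP2A and TFAP2C probes. Other called genes of a list are named without values and were picked after their values were seen. Members and lists were chosen with earlier results of these data known. The array numbers come from the sample titles. In their deviations from the group means, same-numbered ESC and 1-week arrays correlated at 0.1382 to 0.2532 in 4 of 4 pairs, all above 0.1. They were therefore treated as paired in alternative fits, with the array number as a block, but not in the main fit or the permutation tests. Arrays 1 and 2, and 3 and 4, were about as close across numbers, and 0 of the 12 arrays were closest to their own number in both other groups. The 2-week arrays were not read as paired, at -0.0494 to 0.0229 with ESCs and -0.095 to 0.1511 with 1-week EBs. The main fit has no block, and blocked values stand beside results they change. The precision is limited by the 4 arrays per group.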

Additional observations from a re-analysis of the deposited data

Results flagged for a closer look

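Within groups of 4 arrays, 54 sets of member values were examined for a single array far from the rest, and 2 stood out, where chance alone gives about 1 in 20. TFAP2C probe ILMN_1683891 read 9.28 on the second 2-week array, with the other 2-week arrays at 9.76 to 9.78, so that the gap made up 0.9666 of the range, past the limit of Dixon's test at 95%. CCR7 probe ILMN_1715131 read 5.26 on the third 1-week array against 5.34 to 5.35 on the others, a share of 0.8424, and was detected on none of them.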

How the results depend on the processing

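The calls of TFAP2A probes ILMN_1765574 and ILMN_2374115, TFAP2B and VTCN1 against ESCs kept their direction and their side of the threshold in every alternative that tested them. These changed the scaling between arrays, the filter, the groups fitted, the block or the source table, averaged arrays 1 and 2, and 3 and 4, or left out an array. VTCN1 was not tested with detection on all 4 arrays of a group required, where 3 member probes were called at each time. The background offset was varied for the TFAP2A pair tests alone. The number of probes called at 1 week was 885 with the authors' normalized values, against 1409, and between the EB times 107 against 204. Pair tests of TFAP2A probes passing after adjustment numbered 2 with both EB times pooled, 1 of them resting on a probe undetected in ESCs, against 0, and 2 of 5 nearest patterns of TFAP2A recurred with the authors' values. Leaving out 1 array at a time gave 1351 to 1534, 2153 to 2372 and 201 to 221 called probes in the 3 comparisons, 4 to 4, 4 to 4 and 0 to 0 called member probes, and 0 to 0 pair tests passing after adjustment. With the array number as a replicate block, 1409, 2240 and 204 probes and 4, 4 and 0 member probes were called, and the same 1409 and 4 at 1 week with ESCs and 1-week EBs alone in the blocked fit, chosen after seeing the data. No member call changed with the block, though TEAD3 at 1 week reached an adjusted p of 0.00952 at under 2-fold. PGF and CGA at 1 week passed the test only where the filter admitted their probes. Probes near the detection floor limit what can be said of PGF, CGA, VTCN1, ELF5, XAGE2 and CCR7.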
